A study of Sus scrofa with 48 samples.

Results

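The enzymes that turn citrate into long-chain fatty acids were followed in 48 pigs, in the fat around the kidneys (perirenal adipose tissue, PRAT). The 8 genes were ACLY, ACSS2, ACACA, FASN, ELOVL6, SCD, ME1 and PGD, and their probes were taken by gene name from the scanner files of a porcine array. The names gave 31 probes for 7 of the genes. ACLY is listed under its older name ACL and added 3 probes, so that 34 probes of the 60305 on the array were described. None of the 34 had a saturated or missing spot and each was well above background on every array, so that all were tested. Chromosome positions were not analysed here.

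Large White pigs of a line selected for low residual feed intake (RFIneg) or a line selected for high residual feed intake (RFIpl) were fed without restriction on either of 2 diets, and were 132 days old per the labels. The HF diet was high in fat and fiber, and the LF diet was low in both and rich in starch. RFI (residual feed intake) compares the feed eaten with the amount predicted for a given growth and upkeep, so that low RFI pigs are the more feed-efficient. Each of the 4 combinations of diet and line held 12 pigs, and RNA of each pig was hybridised to its own array with the dye Cy3. The adipose depot is a mixture of cells, and in such bulk tissue fewer cells of a type and less RNA per cell cannot be told apart.

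Fat tissue is the main site of fatty acid synthesis in the pig. Citrate leaves the mitochondria and is split by ATP-citrate lyase (ACLY) into oxaloacetate and acetyl-CoA, while acetyl-CoA synthetase (ACSS2) makes acetyl-CoA from acetate. Acetyl-CoA carboxylase (ACACA) turns it into malonyl-CoA, fatty acid synthase (FASN) builds palmitate from both, ELOVL6 lengthens palmitate and stearoyl-CoA desaturase (SCD) introduces a double bond. Malic enzyme (ME1) and phosphogluconate dehydrogenase (PGD) supply the NADPH that these steps consume. Transcription factors of the SREBP family and the carbohydrate-responsive factor encoded by MLXIPL are known to drive many of these genes.

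All 34 probes gave lower signals in HF than in LF pigs and all 34 were called. Over all 43355 probes tested, 14.5% were called as lower and 8.58% as higher in HF pigs. A call meant a raw p under 0.01, a fold change over 1.1 and a Benjamini-Hochberg (BH) adjusted p under 0.08 in limma, with adjustment over all probes tested. Values are log2 spot intensity minus the median of the array, so that each is relative to the typical probe of its array, and differences are HF minus LF on that log2 scale. The member differences ran from -1.75 to -0.22 with a median of -0.84, beside a median of -0.02 for all probes tested. The largest BH p of a member was 0.00593. All 34 estimates were below 0 in low RFI pigs and all 34 in high RFI pigs, and 30 probes were lower in HF pigs on all 6 array slides. Arrays differ in how they can be brought to a common level. Centring on spike-in controls moved the median of all probes to 0.12 and left 30 of the 34 called, all 34 with a negative estimate.

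**Figure D1:**
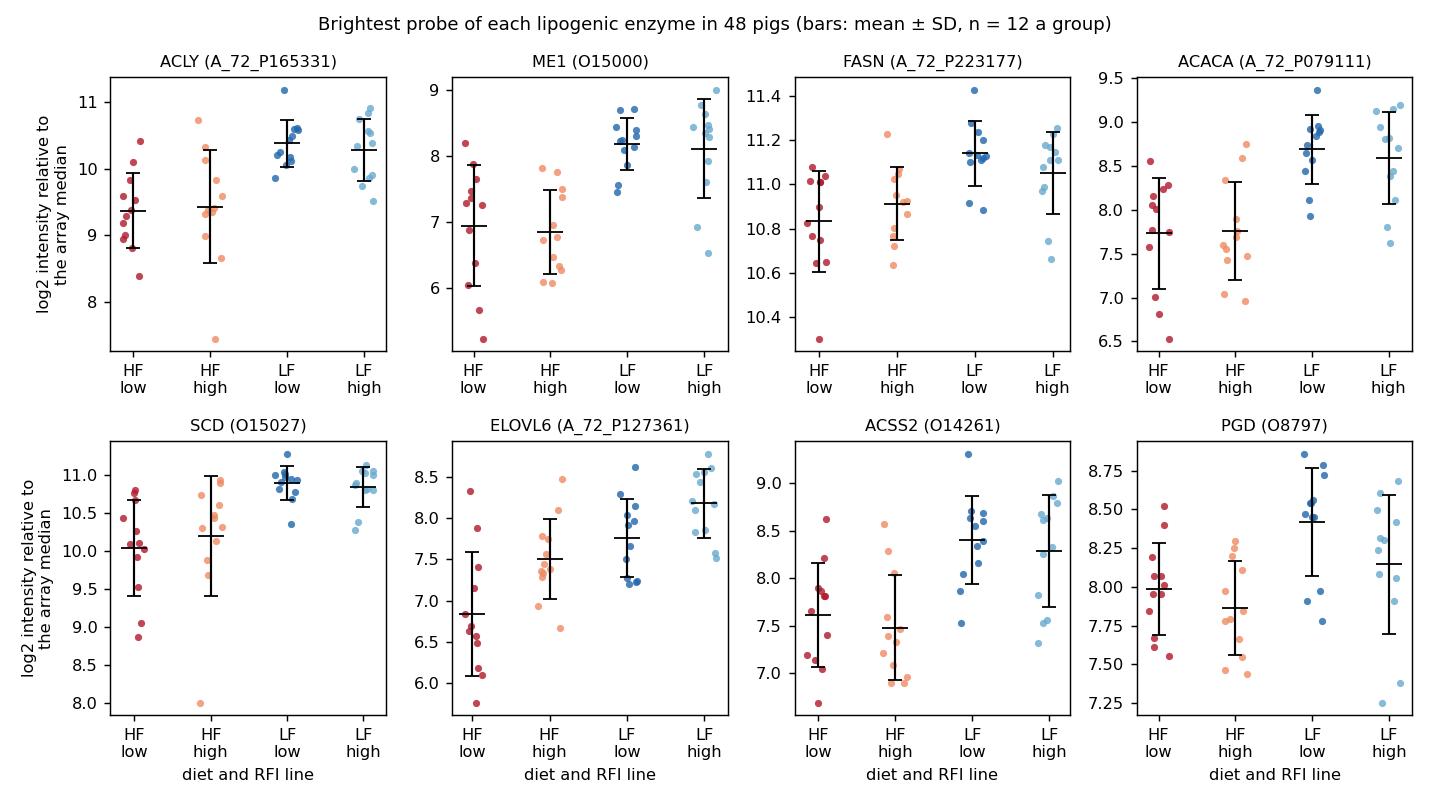
Values of the brightest probe of each gene (that with the highest mean signal), as log2 intensity relative to the array median, by diet and RFI line, with a point for each pig and bars for the mean ± SD (n = 12). HF pigs lie lower on average in all 8 genes and the diets overlap in all of them. For PGD the lowest pig of all ate the LF diet.

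The entry into the pathway was lower in HF pigs at ACLY and ACSS2. The brightest ACLY probe (A_72_P165331) ran from 7.45 over a median of 9.38 to 10.73 in the 24 HF pigs and from 9.51 over 10.37 to 11.19 in the 24 LF pigs. The HF pigs were thus spread over a wider range, 14 of them lay below the lowest LF pig, and 4 LF pigs lay above the highest HF pig. The difference was -0.93 (95% confidence interval -1.26 to -0.60, limma BH p = 4.16e-05), or 1.91-fold. The other ACLY probes gave -1.07 and -1.05. At ACSS2 the brightest probe (O14261) ran from 6.69 over 7.44 to 8.63 in HF pigs and from 7.32 over 8.48 to 9.31 in LF pigs. The diets overlapped, with 9 HF pigs below all LF pigs and 9 LF pigs above all HF pigs. The ACSS2 difference was -0.80 (95% confidence interval -1.10 to -0.50, limma BH p = 9.68e-05), and its 4 probes lay between -0.82 and -0.61.

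The 4 ACACA probes were called at different sizes. The sequences of the 2 probes with a known start in the transcript are shown because their diet differences were the smallest and the largest of the gene. Both are 60 bases long and are given as the files list them, in lower case.
ACACA A_72_P442314: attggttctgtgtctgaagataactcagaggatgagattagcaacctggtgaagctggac
ACACA A_72_P305844: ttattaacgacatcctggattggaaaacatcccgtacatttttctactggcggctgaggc

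Probe A_72_P442314 starts at base 120 of its transcript and ran from 3.24 over 4.41 to 5.06 in HF pigs and from 4.16 over 4.69 to 5.56 in LF pigs. Its difference was -0.40 (standard error 0.11, limma BH p = 0.00382), with wide overlap of the diets. Probe A_72_P305844 starts at base 6661 and ran from 1.39 over 2.64 to 3.63 in HF pigs and from 2.48 over 3.59 to 4.56 in LF pigs. Its difference was -0.97 (standard error 0.16, limma BH p = 1.24e-05), and here 10 HF pigs lay below all LF pigs. The brightest ACACA probe (A_72_P079111) fell by 0.90 (95% confidence interval -1.20 to -0.60) and probe O3684 by 0.58. From pig to pig, around the means of the 4 groups, A_72_P442314 followed A_72_P079111 with r = 0.49 and A_72_P305844 followed it with r = 0.96. These are correlations over 48 pigs between probes of a single gene, given as a description. With spike-in centring A_72_P442314 was not called.

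FASN was lower in HF pigs at all 5 probes, with differences between -0.78 and -0.22. Not all of the 5 are independent measurements. O15017 reads the opposite strand at the place of A_72_P175196, and A_72_P338038 has the same 60 bases as A_72_P647699, which are shown because this single sequence stands for 2 of the 5 probes.
FASN A_72_P647699: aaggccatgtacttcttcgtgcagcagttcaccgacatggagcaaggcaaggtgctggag

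The probe A_72_P647699 ran from 7.15 over 8.63 to 9.28 in HF pigs and from 7.98 over 9.27 to 9.72 in LF pigs. Only 3 HF pigs lay below all LF pigs, while 12 LF pigs lay above all HF pigs. The difference was -0.66 (95% confidence interval -0.93 to -0.39, limma BH p = 0.00022), and its copy A_72_P338038 gave -0.65. On 1 of the 6 slides this difference was 0.10, so that it was below 0 on 5 slides.

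The probe A_72_P175196 gave -0.78 (limma BH p = 0.0004), and O15017 gave -0.68 (limma BH p = 0.000919). Over 48 pigs these followed each other with r = 0.98 around the group means. The brightest FASN probe (A_72_P223177, starting at base 7914) had a narrow range, from 10.30 over 10.91 to 11.23 in HF pigs and from 10.66 over 11.12 to 11.43 in LF pigs. Its difference was -0.22 (95% confidence interval -0.33 to -0.12, limma BH p = 0.0014), or 1.17-fold. Its spots reached up to 42.6% of the scanner's saturation value, against up to 15.5% for A_72_P647699, and the part of brightness in the difference was not tested. The call at A_72_P223177 was lost with quantile normalization, at -0.11, and with spike-in centring, at -0.08, while the other 4 FASN probes stayed called under both.

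**Figure D2:**
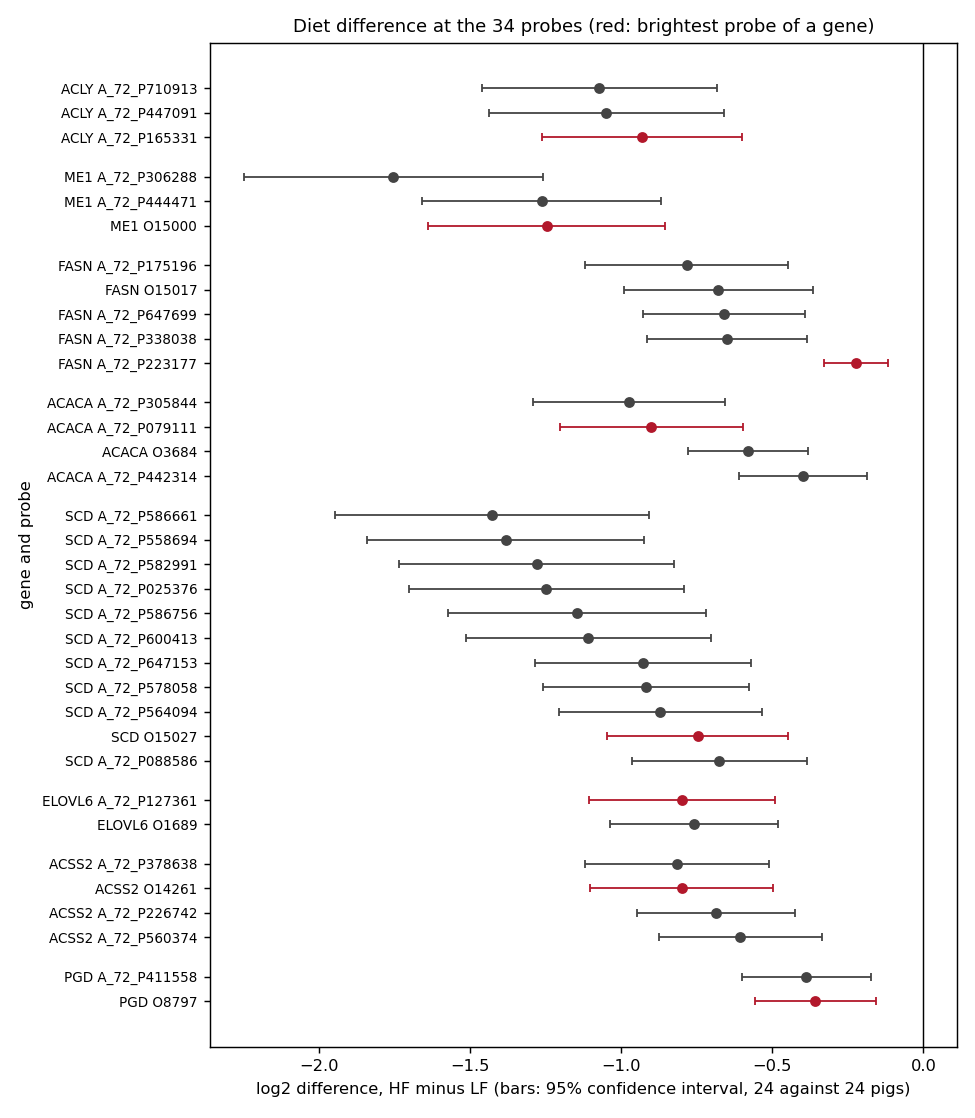
The log2 difference HF minus LF at each of the 34 probes, grouped by gene, with its 95% confidence interval (24 against 24 pigs). Every interval lies below 0. The interval of FASN A_72_P223177, the brightest FASN probe, does not overlap those of the other FASN probes, and ME1 A_72_P306288 has the largest difference, at -1.75.

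Elongation and desaturation followed the same direction. SCD had the most probes, 11, all called between -1.43 and -0.67. The brightest (O15027) ran from 8.00 over 10.28 to 10.94 in HF pigs and from 10.28 over 10.92 to 11.28 in LF pigs, and 12 of the 24 HF pigs lay below every LF pig. Its standard deviation was 0.70 in HF and 0.24 in LF pigs, and its difference was -0.75 (95% confidence interval -1.05 to -0.45, limma BH p = 0.000198). The probe nearest the 5′ end, starting at base 395, is shown because it gave nearly the largest SCD difference.
SCD A_72_P558694: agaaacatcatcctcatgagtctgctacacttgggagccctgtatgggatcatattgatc

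It ran from 2.23 over 4.71 to 6.26 in HF pigs and from 4.87 over 6.23 to 6.87 in LF pigs, with 13 HF pigs below all LF pigs. The difference was -1.38 (95% confidence interval -1.84 to -0.92, limma BH p = 1.51e-05), or 2.61-fold. Along the 9 SCD probes whose start in the transcript is given, the difference became smaller towards the 3′ end only from base 4084 on. It was -1.38 at base 395, -1.43 at base 4084, -1.28 at base 4494, -1.14 at base 4745, -0.93 at base 4893 and -0.67 at base 5044. Spearman's rho of start and difference over these 9 probes was 0.98 and Pearson's r was 0.60. Spearman's rho of the median intensity and the difference over all 11 probes was 0.90. Probes of a transcript share their target and several of these overlap, so no test was made. The bright SCD probes reached up to 50.1% of the saturation value, and position and brightness cannot be told apart here. The pigs were ordered alike at all of them, with r between 0.91 and 1.0 for the 55 pairs of SCD probes around the group means.

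**Figure D3:**
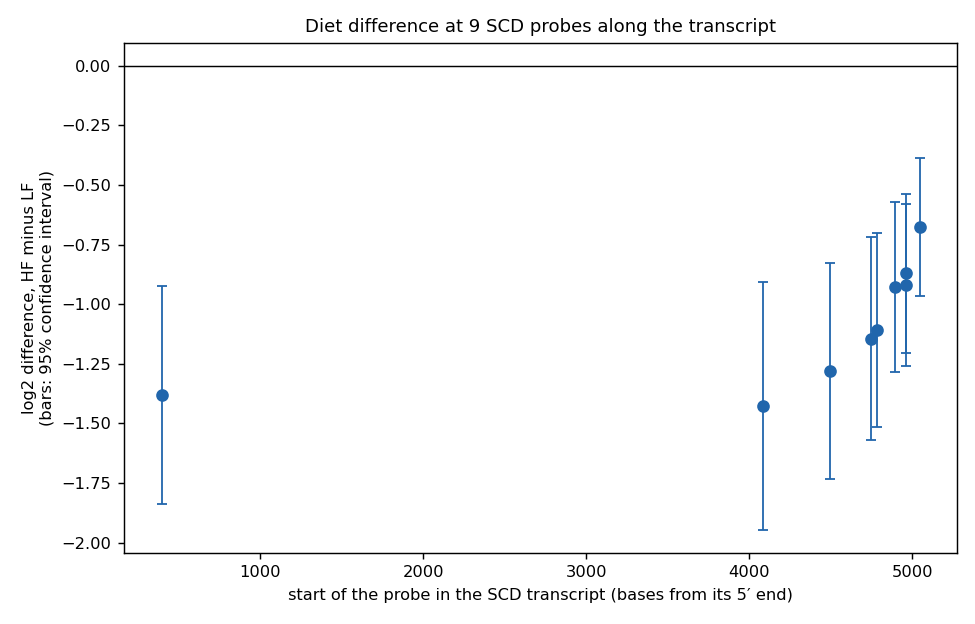
The log2 difference HF minus LF (95% confidence interval) at the 9 SCD probes with a known start, against that start in bases from the 5′ end of the transcript. The difference is -1.38 at base 395 and shrinks from -1.43 at base 4084 to -0.67 at base 5044.

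ELOVL6 was lower in HF pigs at both probes, and in this gene alone a probe was called for line. The line effect, low minus high RFI, was called at 3.38% of all probes tested and at 1 of the 34 member probes, a share no higher than that of all probes. That probe (A_72_P127361) ran from 5.76 over 6.66 to 8.33 in low RFI pigs and from 6.67 over 7.42 to 8.48 in high RFI pigs on the HF diet. On the LF diet it ran from 7.21 over 7.79 to 8.62 in low RFI pigs and from 7.52 over 8.19 to 8.78 in high RFI pigs. Low RFI pigs were lower on both diets, with overlap. The line difference was -0.55 (standard error 0.15, limma BH p = 0.0359) and the diet difference -0.80 (95% confidence interval -1.11 to -0.49, limma BH p = 0.000117).

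The other ELOVL6 probe is shown because it did not give the line difference.
ELOVL6 O1689: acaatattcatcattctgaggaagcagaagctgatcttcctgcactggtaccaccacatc

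O1689 ran from 5.49 over 6.59 to 7.44 in low RFI and from 6.07 over 6.58 to 7.68 in high RFI pigs on the HF diet, and from 6.55 over 7.5 to 7.88 and from 6.68 over 7.46 to 7.90 on the LF diet. Its line difference was -0.06 (standard error 0.14, limma BH p = 0.916) and its diet difference -0.76 (95% confidence interval -1.04 to -0.48, limma BH p = 5.83e-05). The diet difference was thus of like size at both probes and the line difference was not. The signal of A_72_P127361 minus that of O1689 was 0.34 ± 0.51 (SD, n = 24) in low RFI pigs and 0.82 ± 0.18 (SD, n = 24) in high RFI pigs, a difference of -0.48. This quantity was formed because the probes differed in their line call, so it is a description with no test.

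The values of single pigs are given as a description, in ranges set after they had been seen. Among low RFI pigs the value lay between -0.50 and -0.19 in 7 of them, between 0.16 and 0.43 in 7, and between 0.68 and 0.98 in 10, and each of these ranges held 4 HF pigs. Of the high RFI pigs, 22 lay between 0.71 and 1.11, 2 lay at 0.34 and 0.38 and none lay below 0.

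**Figure D4:**
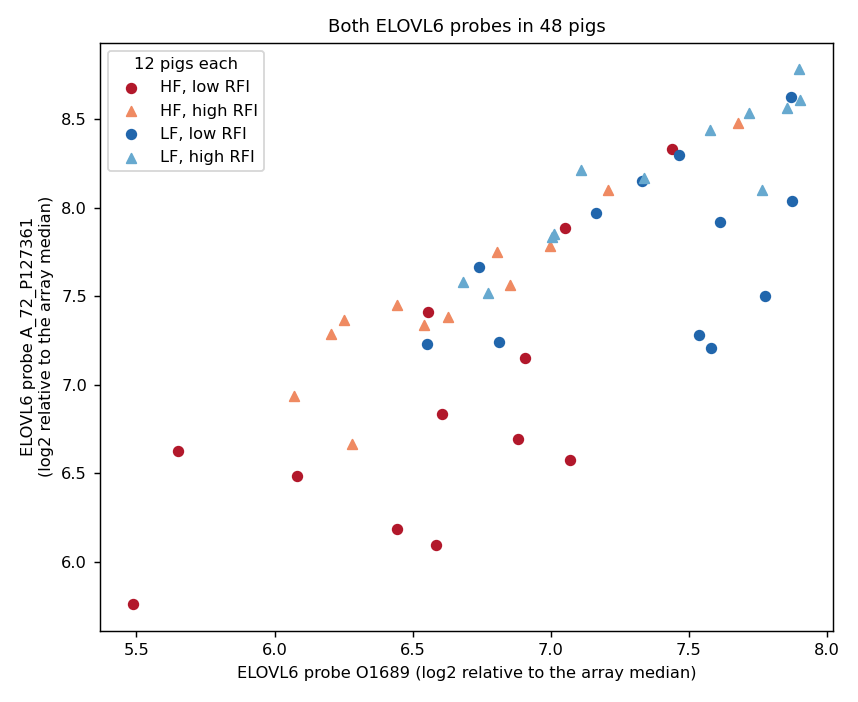
Signal of ELOVL6 probe A_72_P127361 against probe O1689 in 48 pigs, both as log2 relative to the array median, with colour for diet and shape for line. Of the high RFI pigs (triangles), 22 lie along a band and 2 lie below it. A lower signal at A_72_P127361 than at O1689 is seen in 7 low RFI pigs (circles) and in no high RFI pig.

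Of the 8 genes, the NADPH suppliers ME1 and PGD had the largest and the smallest difference averaged over probes. The ME1 probe A_72_P306288 ran from 2.56 over 5.10 to 6.35 in HF pigs and from 5.03 over 6.84 to 7.86 in LF pigs. Each of the 24 HF pigs was under the mean of the LF pigs, and 19 LF pigs lay above the highest HF pig. The difference was -1.75 (95% confidence interval -2.25 to -1.26, limma BH p = 1.24e-06), or 3.37-fold. The brightest ME1 probe (O15000) ran from 5.24 over 6.92 to 8.20 in HF pigs and from 6.53 over 8.29 to 9.0 in LF pigs, with a difference of -1.25. A_72_P444471 has the same 60 bases as O15000 and gave -1.26, so the gene was measured at 2 places.

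The brightest PGD probe (O8797) ran from 7.43 over 7.95 to 8.52 in HF pigs and from 7.25 over 8.43 to 8.86 in LF pigs, so that no HF pig lay below all LF pigs. The difference was -0.36 (95% confidence interval -0.56 to -0.16, limma BH p = 0.00593) and was 0.10 on 1 of the 6 slides. The other PGD probe shares a run of 34 bases with it and gave -0.39. With spike-in centring neither PGD probe was called, at -0.21 for O8797.

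Averaged over the probes of a gene, the differences were -1.42 for ME1, -1.07 for SCD, -1.02 for ACLY, -0.78 for ELOVL6, -0.73 for ACSS2, -0.71 for ACACA, -0.60 for FASN and -0.37 for PGD. The 95% confidence intervals of neighbours in this order overlapped. Those of ME1 (-1.84 to -1.0), SCD (-1.46 to -0.68) and ACLY (-1.38 to -0.65) did not overlap that of PGD (-0.58 to -0.17).

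The diet difference did not pass the test for dependence on line at any member. At the brightest probes it was -1.01 in the low and -0.85 in the high RFI line for ACLY and, in the same order, -1.23 and -1.26 for ME1, -0.96 and -0.84 for ACACA, -0.85 and -0.64 for SCD, -0.92 and -0.68 for ELOVL6, -0.79 and -0.81 for ACSS2 and -0.43 and -0.28 for PGD. It was -0.31 and -0.14 at the brightest FASN probe, which had the smallest raw interaction p of the 34, 0.122. By limma the interaction was called at none of the 34 probes, and none had a raw p under 0.05. Over all probes tested 0.0% were called and 1000 had a raw p under 0.05. Within slides, each with 2 pigs of each group, the diet difference of the brightest probe ranged from -1.69 to -0.22 for ACLY, from -2.08 to -0.42 for ME1, from -0.36 to -0.04 for FASN, from -1.67 to -0.26 for ACACA and from -1.47 to -0.17 for SCD. It ranged from -1.46 to -0.17 for ELOVL6 and from -1.36 to -0.36 for ACSS2. The smallest difference came from the same slide in all of these genes, and that slide held LF replicate 11 of both lines.

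The spread among pigs was wider on the HF diet at 32 of the 34 probes, the exceptions being the 2 PGD probes. Single pigs were extreme in several genes at once. Among LF pigs, replicate 11 of the high RFI line was lowest at the brightest probe of ACLY, ME1, ACACA, SCD and ACSS2, and replicate 3 of that line was lowest for FASN and PGD. Replicate 7 of the low RFI line was the highest LF pig in ACLY, FASN, ACACA, SCD and ACSS2. Among HF pigs, replicate 9 of the high RFI line was highest in ACLY, ACACA, SCD and ELOVL6. The arrays of LF high RFI replicates 3 and 11 and LF low RFI replicate 11 also stood apart over all probes, with a median correlation with the other arrays of 0.979, 0.976 and 0.979, against at least 0.983 for the rest. Without these 3 arrays all 34 probes remained called and the median difference was -0.93. All 3 were LF arrays, and those of the high RFI line held the lowest LF pigs named above. Leaving them out thus takes low values from the LF side alone, so it cannot test how firm the diet difference is.

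Around the 4 group means, the 8 genes rose and fell together from pig to pig. Over 48 pigs, Pearson's r at the brightest probes was above 0 in all 28 pairs, from 0.41 for ACLY with FASN to 0.91 for ACACA with ACSS2, with a median of 0.67. Spearman's rho ran from 0.46 to 0.93. Permutation p values (100000 permutations within groups, two-sided) were at most 0.00436 for r and 0.00182 for rho after BH adjustment over the 28 pairs, and the smallest the permutations could give was 1e-05 before adjustment. Leaving out the 2 pigs farthest from the median of the first gene gave r between 0.43 and 0.90. The median r was 0.72 among HF pigs, 0.72 among LF pigs and 0.70 with slide as a block.

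**Figure D5:**
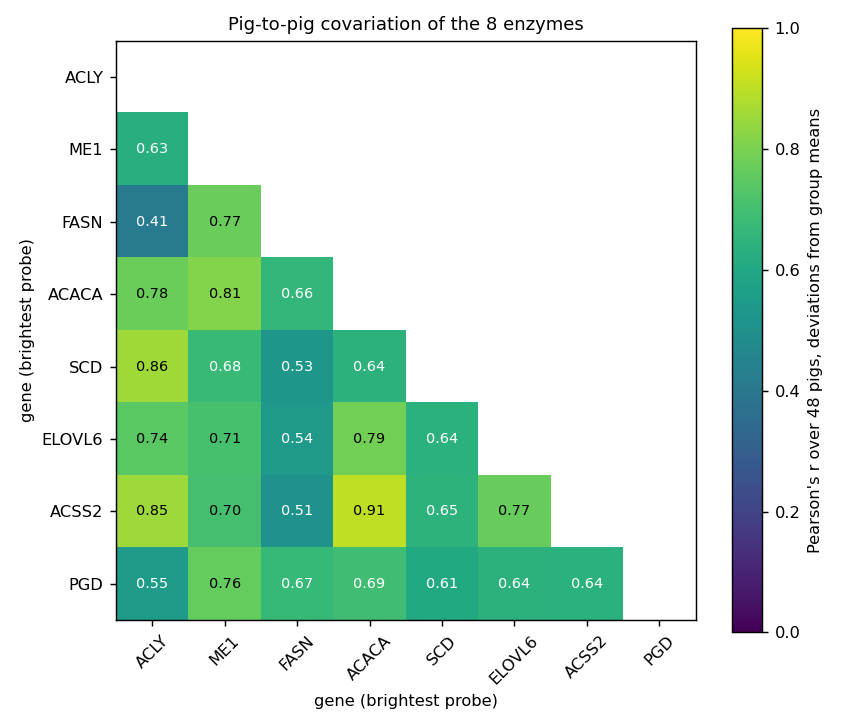
Pearson's r of each pair of the 8 genes at their brightest probes over 48 pigs, computed on deviations from the mean of each diet and line group. ACACA with ACSS2 is highest (0.91), ACLY with FASN lowest (0.41), and FASN has the lowest median r with the other genes (0.54), though its r with ME1 is 0.77.

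ACLY went most closely with SCD (r = 0.86) and ACSS2 (r = 0.85), and ME1 with ACACA (r = 0.81). FASN, at its bright and narrow probe, had the lowest median r with the other 7 genes, 0.54. With the mean over a gene's probes in place of the brightest, the median over the 28 pairs was 0.75. As a measure of how common such values are, 0.224% of 43225 other probes had r over 0.7 with ACLY, 0.0393% with SCD and 1.0% with ME1, the highest of the 8 genes. The share of other probes with r over a gene's own median r with the members was largest for FASN, at 3.78%. It was 1.85% for PGD and smallest for ELOVL6, at 0.0972%.

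Of 9798 other genes, those most like the mean of the 8 members (r over 48 pigs around the group means) were PDHB (r = 0.93), SLC25A1 (0.90), LOC100522678 (0.90), PRR18 (0.87), VPS28 (0.86), ATP5J (0.86), NEURL2 (0.85), DLAT (0.85), NDUFS3 (0.84) and RNPEP (0.84). PDHB and DLAT encode subunits of the pyruvate dehydrogenase complex, SLC25A1 the mitochondrial citrate carrier, and ATP5J and NDUFS3 subunits of the respiratory chain and its ATP synthase. All 10 were called as lower in HF pigs, where 19.0% of all 9831 genes were called as lower at their brightest probe. PDHB differed by -0.72 (limma BH p = 5.21e-05), DLAT by -0.71 (limma BH p = 4.67e-07) and NEURL2 by -1.07 (limma BH p = 7.80e-06).

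The neighbouring steps were described from lists. Of 12 genes for the supply of cytosolic citrate and NADPH, 6 were called as lower and none as higher. Of all 9831 genes, 19.0% were called as lower and 6.1% as higher. The median difference of the 12 genes was -0.27, beside -0.05 for all genes. The level of SLC25A1 was 4.33 ± 0.54 (SD, n = 24) with the HF diet against 5.0 ± 0.58 (SD, n = 24) with the LF diet, and it fell by 0.67 (limma BH p = 0.00131). GOT1, an aspartate aminotransferase gene, fell by 0.49 (limma BH p = 3.23e-05) and TALDO1, of the pentose phosphate pathway, by 0.37 (limma BH p = 0.00383). IDH1 and TKT were also called, IDH1 at a mean level below the array median (-0.58 in HF and -0.26 in LF pigs). The mitochondrial malic enzymes ME2 and ME3 were not called, at 0.02 and 0.13. With spike-in centring 3 of the 12 were called as lower and 2 as higher, where 848 of all 43355 probes were called as lower and 12043 as higher.

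Of 10 measured genes for other elongation and desaturation steps, 5 were called as lower and none as higher, with a median of -0.17. Of all genes, 19.0% were called as lower and 6.1% as higher. ELOVL5, an elongase of polyunsaturated fatty acids, fell by 0.49 (limma BH p = 6.41e-05), TECR, which completes each elongation cycle, by 0.34 (limma BH p = 0.016), CYB5A, the cytochrome b5 that passes electrons to desaturases, by 0.29 (limma BH p = 0.00113) and HACD3 by 0.19 (limma BH p = 4.68e-05). With spike-in centring only 1 of the 10 was called, as lower, where 848 of all 43355 probes were called as lower and 12043 as higher. Of 9 genes for acyl-CoA formation and malonyl-CoA turnover, 1 was called, as lower, a share below the 19.0% of all genes. The called gene was MLYCD, which degrades malonyl-CoA, at -0.15 (limma BH p = 0.0129). Its mean level lay below the array median, at -0.88 in HF and -0.73 in LF pigs. MLYCD was not called with quantile normalization or spike-in centring, where 1 gene of this list was called as higher.

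Of 17 regulators of lipogenic genes, 3 were called as lower and none as higher, a share of lower calls close to the 19.0% of all genes. With spike-in centring 1 was called as lower and 2 as higher, where 848 of all 43355 probes were called as lower and 12043 as higher. MLXIPL was at 3.52 ± 0.45 (SD, n = 24) with the HF diet and 4.14 ± 0.44 (SD, n = 24) with the LF diet. The difference was -0.62 (limma BH p = 0.00027) and stayed called under each of the 5 scalings. PPARG differed by -0.19 (limma BH p = 0.038) and INSIG1 by -0.17 (limma BH p = 0.0189), but of the 5 scalings PPARG was called under median centring alone and INSIG1 under 2. The next 2 genes are named after their values were seen. SREBF1, the sterol-responsive factor of lipogenic genes, was not called at its brightest probe, at -0.07 (limma BH p = 0.538), an estimate that was above 0 with quantile normalization and with spike-in centring (0.08), and 1 of its 3 probes was called as lower. NR1H3, a liver X receptor, was not called, at 0.12, but was called as higher under the 4 other scalings.

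Markers of cell types were read beside the members. Of 10 macrophage markers, 7 were called as higher in HF pigs and none as lower, where 6.1% of all genes were called as higher, and their mean level ran from 1.84 to 4.03 in HF and from 1.71 to 3.71 in LF pigs. Of 9 adipocyte markers, 2 (CIDEC and CIDEA) were called as lower, a share close to the 19.0% of all genes, and the mean level of the 9 ran from 9.03 to 9.51 in HF and from 9.11 to 9.60 in LF pigs, far above the array median in both. The median adipocyte marker difference was -0.12, or 0.02 with spike-in centring. With that centring 1 of the 9 was called as lower and 1 as higher, where 848 of all 43355 probes were called as lower and 12043 as higher. Around the group means the member mean followed the adipocyte marker mean with r = 0.59 and the macrophage marker mean with r = -0.24 over 48 pigs, as a description. Endothelial markers had 1 of 6 called as higher, T and NK cell markers 2 of 8 and fibroblast markers none of 7. With spike-in centring all 10 macrophage, 6 of 8 T and NK cell and 2 of 7 fibroblast markers were called as higher. Under this centring 12043 of all 43355 probes tested were called as higher, a share close to that of the fibroblast markers. The part of cell composition in the member differences was not tested.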

How the data were processed

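Spot intensity and flags (other values of 0 or 1) were deposited as written by Agilent Feature Extraction 10.7.3.1 for each one-colour array, and per the labels the authors used R 2.10.0. The authors' log2 table, centred on the array median, was deposited for 38142 probes. Its values matched spots of the scanner files within 1e-06, but its labels named the matched spot in 2 rows, so it served as an alternative, read by its values. Here log2 of the median spot signal minus the array median over 60306 non-control spots was used, for probes well above background on at least 24 of 48 arrays. Array medians of raw intensity ran from 115 to 178, and the number of arrays limits the precision. Diet, line and interaction were fitted with limma 3.58.1 in R 4.3.3 over all 4 groups, with BH adjustment over 43355 probes, and tested on simulated data. Confidence intervals take the standard error of limma and 44 degrees of freedom. Slides (6, over 2 scan days) held every group equally. Python 3.11.15 with numpy 2.4.6 and pandas 2.3.3 made the correlations. Genes were named by the files' gene names (21837 probes), accessions (2231) or synonyms (198) through RefSeq tables, and represented by the brightest probe.

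All probes of the 8 genes were named, then the 4 called genes of each list with the largest diet difference, and the 10 genes most like the members, except for a gene of the citrate and NADPH list that is not reported here. Members and lists were chosen with earlier results of these data known. Marker lists of B and plasma cells, erythrocytes, muscle, adrenal gland, kidney, brown fat and mesothelium were also read. The alternatives were other scalings (75th percentile of the processed signal, quantile, normexp with an offset of 50 and quantile, spike-in controls), other filters, the deposited table, the ANOVA of the study's methods, a block for the slide, the scan day or the replicate number, a fit without interaction, BH under 0.05 and a fold over 1.5. Promoter sequences, subcutaneous tissue and carcass traits were not analysed here.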

Additional observations from a re-analysis of the deposited data

How the results depend on the processing

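The diet effect on the members kept its direction at all member probes under all 16 alternatives, with between 29 and 34 of the probes called. The deposited table held 33 of them, all called. The probes not called were the brightest FASN probe with quantile normalization (with and without normexp), this probe, ACACA A_72_P442314 and both PGD probes with spike-in centring, and these with ACACA O3684 at a fold over 1.5. At a fold over 1.5 the line effect on member probes was called at 0 probes, and over all probes 439 were called for diet and 233 for line, against 10005 and 1465. Spike-in centring gave 677 probes for line. The split of diet calls depended on scaling: 62.8% of them were lower in HF pigs with median centring, 48.1% with the 75th percentile, 48% with quantile normalization and 6.58% with spike-in centring. Leaving out the 3 arrays that stood apart, all of LF pigs, was chosen after seeing the data and raised the genes called on the 4 pathway lists from 15 to 20. The median r of the 28 pairs stayed between 0.63 and 0.75.

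The labels give no meaning to the replicate numbers. Same-numbered pigs of different groups, which always shared a slide, had a median correlation of 0.126 between their deviations. It was -0.011 for differently numbered pigs, and 0.063 for those of them that shared a slide. Of the 72 same-numbered pairs, 38 were over 0.1 and the others were not, so the numbers were not taken as pairs. With the replicate number as a block the diet effect called 34 member probes and 10898 of all probes, the line effect 1949 of all probes, and 17 genes of the pathway lists were called.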

Other observations

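Among the marker lists, AQP2, a water channel of the kidney collecting duct and the only kidney marker well above background, was at 2.75 ± 0.44 (SD, n = 24) with the HF diet and 3.37 ± 0.46 (SD, n = 24) with the LF diet. It differed by -0.63 (limma BH p = 0.000292). Around the group means it followed the mean of the 8 lipogenic genes with r = 0.81 over 48 pigs. UMOD had no probe under its name, and NPHS1 and SLC12A1 were not well above background. Of 3 brown fat genes 1 was called as lower (CIDEA, also an adipocyte marker), where 19.0% of all genes were called as lower. At the brightest probes no gene was called among 3 B and plasma cell, 2 erythrocyte, 5 muscle, 3 adrenal and 2 mesothelium markers by limma. All 5 muscle estimates were below 0. Over all their probes, 4 of 6 MYH7 probes and 1 of 11 CKM probes were called as lower, where 14.5% of all probes tested were.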
